A study of Mus musculus with 2 samples.

Results

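In bone marrow-derived monocytes (BMDMs) of a LysM-Cre;Arid1afl/fl mouse, most cells carried many transcripts of Ly6a, but a part of them did not. These Ly6a-low mutant cells were 1246 of the 4837 cells of the mutant library that passed the filters, and of 12320 cells deposited in all. They were chosen by the number of unique molecular identifiers (UMIs, 1 per captured mRNA molecule) counted for Ly6a, which was at most 2 in each. A first comparison group held 3049 cells of the same library with 10 or more Ly6a UMIs, called Ly6a-high cells, and a second held all 5893 kept cells of the control library. The remaining 542 mutant cells had 3 to 9 Ly6a UMIs and are given beside the others as intermediate cells. A cell was kept with at least 500 genes, at most 10% mitochondrial UMIs, at least 10000 UMIs and under 5% of its UMIs from S100a8 and S100a9.

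The study asked how loss of Arid1a changes osteoclast (OC) formation, and measured it by single-cell mRNA sequencing (scRNA-Seq) 24 h after RANKL was added. Bone marrow came from femurs of mice 4 to 6 weeks old, and both cultures held M-CSF at 50 ng/ml and RANKL at 100 ng/ml. The first library was labelled CONTROL with no further genotype, and the other LysM-Cre;Arid1afl/fl. The Cre recombinase is made from the Lyz2 locus in myeloid cells and removes exons 5 to 6 of the floxed Arid1a gene, so that cells of other lineages and cells in which Cre did not act keep it. There was 1 library per genotype. All values below therefore compare groups of cells, no test across samples was possible, and every interval covers counting error only.

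Ly6a encodes Sca-1, a small surface protein held by a lipid anchor, which is known as a marker of blood stem cells and as a transcript that interferon raises in many cell types. Interferon-stimulated genes are switched on when type I interferon binds its receptor and kinases at the receptor activate a transcription factor complex that contains IRF9 and binds an element called ISRE in promoters. Arid1a encodes a DNA-binding subunit of the canonical BAF chromatin remodeling complex.

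For the level of a gene its UMIs were added up across a group's cells and expressed per 1e6 UMIs of that group (CPM), with 95% exact Poisson intervals. By this measure Ly6a (ENSMUSG00000075602, chromosome 15, 74863840 to 74869880, minus strand, GRCm39) stood at 24.9 CPM (23.2 to 26.7) in the Ly6a-low cells, at 226 CPM in the intermediate cells, at 1781 CPM in the Ly6a-high cells and at 52.5 CPM in the control cells. These values chose the groups and are a description. Of the members, 670 had 0, 385 had 1 and 191 had 2 Ly6a UMIs, and the Ly6a-high cells had a median of 39 and up to 318. Just inside the limit the 191 cells with 2 UMIs had a median of 82.9 CPM, and just outside it the 121 cells with 3 UMIs had 125 CPM. No gap in the counts separated members from the rest. Ly6a-low cells made up 25.8% of the kept mutant cells (Clopper-Pearson interval, 24.5% to 27.0%) and the Ly6a-high cells 63.0%, whereas 86.3% of kept control cells were under the same limit and 3.36% reached 10 UMIs. Ly6a overlaps Gm28068 on the opposite strand and belongs to a family of similar genes, so some of its reads cannot be placed with certainty.

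**Figure D1:**
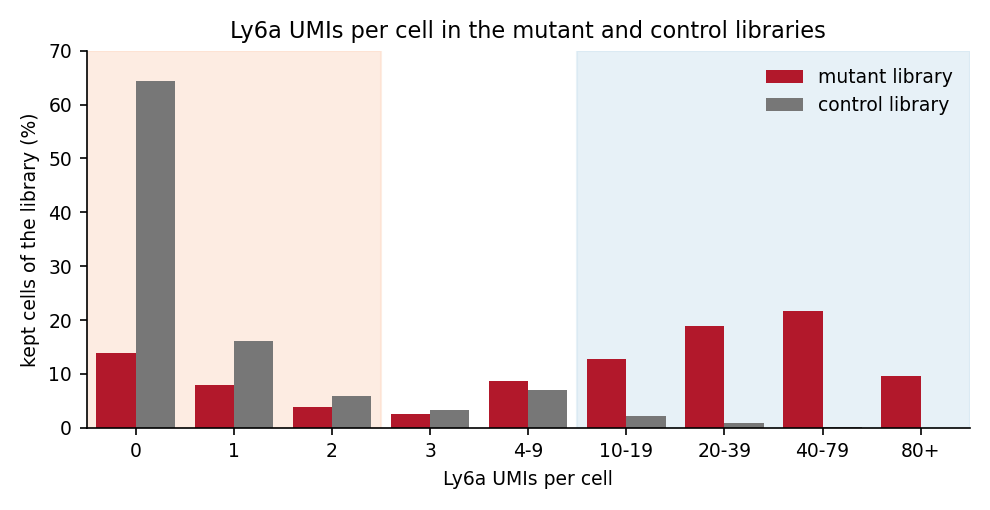
Share of kept cells (%, y axis) with each number of Ly6a UMIs (x axis) in the mutant and control libraries, 1 library each. The left shading covers the limit of 2 UMIs that defines the Ly6a-low cells, with 25.8% of mutant and 86.3% of control cells, and the right shading covers 10 UMIs or more, with 63.0% and 3.36%.

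Shares of cells with a Ly6a UMI were taken after thinning every cell at random to 10000 UMIs. A Ly6a UMI was then found in 24.96% of the Ly6a-low cells (22.6% to 27.5%), in 22.4% of control cells and in 20.5% of 39 neutrophil-like cells of the mutant library (9.30% to 36.5%), which had been left out for their S100a8 and S100a9 and had a median of 15106 UMIs. In the Ly6a-high cells it was 99.9%. These shares follow from the rule in the mutant groups and are a description, and the 39 cells are too few to set a background.

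Depth did not set the groups apart by much. Median UMIs per cell were 23146 in the Ly6a-low, 22557 in the intermediate, 23752 in the Ly6a-high and 24662 in the control cells, and median mitochondrial shares were 1.35%, 1.27%, 1.27% and 2.07%. The Ly6a-low cells were monocytic by their transcripts, with Csf1r, the M-CSF receptor, at 401 CPM, Adgre1, which encodes F4/80, at 575 CPM and Cd68 at 704 CPM, against 403, 520 and 567 CPM in the Ly6a-high cells. Summed levels of 8 stromal, 6 B cell, 8 T and NK cell and 6 dendritic cell markers were 0.260, 0.941, 0.617 and 0.227 CPM in the members, and 3, 2, 5 and 3 of them were at 0. Sums of 6 endothelial and 6 progenitor markers were 8.47 and 19.1 CPM in the members, 13.4 and 28.4 CPM in Ly6a-high and 5.99 and 3.99 CPM in control cells, led by Kdr (7.95 CPM in the members) and Sox4 (12.6 CPM). The 7 mast cell, basophil and eosinophil markers summed to 0.422 CPM. Of 8 erythroid and megakaryocyte markers the sum was 830 CPM, nearly all of it Pf4, which was at 782 CPM in Ly6a-high and 652 CPM in control cells. A doublet score removed 9 Ly6a-low and 232 Ly6a-high cells when it was applied, and the values with such cells removed are among the alternatives listed at the end. The libraries shared 8 cell barcodes, 2 of them among the members.

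The targeted gene was low in the Ly6a-low cells against control, and close to the rest of their library. Arid1a (chromosome 4, 133406304 to 133484080, minus strand) was counted 549 times in the members, 17.8 CPM (16.4 to 19.4), against 21.7 CPM in the intermediate cells, 20.5 CPM (19.5 to 21.5) in the Ly6a-high cells and 51.8 CPM (50.7 to 52.9) in control cells. The log2 ratio of Ly6a-low over Ly6a-high cells was -0.20 (exact interval, -0.34 to -0.06) and that over control cells -1.54 (-1.67 to -1.41). The first pair had a mean under 20 CPM, and its ratio was -0.04, -0.17 and -0.33 in cells of 10000 to 20000, 20000 to 30000 and 30000 or more UMIs. At 10000 UMIs, at least 1 Arid1a UMI was seen in 15.3% of Ly6a-low, 17.6% of Ly6a-high and 38.7% of control cells, and the difference of the first pair was -2.25 percentage points (-4.66 to 0.26). The kit reads the 3′ end of transcripts, which a recombined allele keeps, so these counts do not tell deleted from intact alleles. Lyz2, the locus that carries Cre, was at 7306 CPM in Ly6a-low, 5618 CPM in intermediate, 4725 CPM in Ly6a-high and 10781 CPM in control cells. Of the 17 BAF subunit genes whose mean over the groups compared reached 20 CPM, the level floor used for every list here, Arid1a was the single one beyond 2-fold against control. Over all 5215 genes in that comparison 1.53% were beyond 2-fold lower and 6.14% higher. None of the 16 BAF genes past the floor was beyond 2-fold between Ly6a-low and Ly6a-high cells. Arid1b, the paralogue of Arid1a, was at 29.9 CPM in Ly6a-low, 26.5 CPM in Ly6a-high and 19.1 CPM in control cells. A list of 5 genes that were nearly lost from the mutant library as a whole, chosen on these libraries, was low in the members too. Emp2, a membrane protein of the PMP22 family, stood at 4.90 CPM against 6.88 CPM in Ly6a-high and 99.4 CPM in control cells, and Fxyd2, a regulator of the sodium pump, at 3.99, 3.25 and 39 CPM. Dennd5b was at 5.45, 5.90 and 44.0 CPM, Ccnb1ip1 at 4.74, 5.22 and 35.1 CPM, and Uchl1 at 15.5, 26.9 and 133 CPM. In each of the 5 the members were closer to the Ly6a-high cells than to the control cells, which follows largely from how the 5 were chosen.

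The interferon-stimulated genes were high in the cells that lacked Ly6a. Of 40 such genes, the 36 past the level floor had a median log2 ratio of 1.60 over control cells, and 31 were beyond 2-fold higher, where 6.14% of all 5215 genes in that comparison were (320 genes) and 1.53% were beyond 2-fold lower. The median over all genes was 0.01. Some of the 36, such as Ddx60 (39.9 and 6.92 CPM in Ly6a-low and control cells), passed the floor only through the Ly6a-low cells. The Ly6a-high cells, set against the same control cells, had a median of 1.79 with 34 of 38 beyond 2-fold, where 5.47% of all genes were. Irf7, the transcription factor that amplifies the response, was at 563 CPM in Ly6a-low, 576 CPM in intermediate, 634 CPM in Ly6a-high and 78.5 CPM in control cells. Zbp1, a sensor of Z-form nucleic acids, was at 172, 176, 201 and 23.5 CPM in the same order, and Ifit3, which binds viral RNA, at 132, 127, 163 and 25.5 CPM. Isg15, a ubiquitin-like modifier, was at 518, 601, 744 and 161 CPM. In all 4 genes the members were above control and below the Ly6a-high cells. Of the 4, Isg15 was furthest below, at 69.6% of the Ly6a-high level, and Irf7 the nearest, at 88.7%.

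Set directly against the Ly6a-high cells, 37 of the 39 interferon-stimulated genes past the floor were lower in the Ly6a-low cells and 2 were higher, none of them beyond 2-fold in either direction. Over all 5276 genes, 0.152% were beyond 2-fold lower (8 genes, among them Ly6a, which chose the cells) and 0.171% beyond 2-fold higher (9 genes). The median of the list was -0.22 against -0.03 for all genes, and the members held a median of 85.6% of the Ly6a-high level, from 50.5% to 104%. The lowest was Isg20, an RNA exonuclease, with 37.4 CPM in Ly6a-low and 74.0 CPM in Ly6a-high cells, a log2 ratio of -0.99 (-1.08 to -0.90). Next were Ifi27l2a (-0.67), the nucleotide kinase Cmpk2 (-0.60), Phf11b (-0.57), Ifi44 (-0.55) and Oasl1 (-0.54). The pair that was not lower was Parp14 (0.06) and Tor3a (0.02). For 37 of the 39 genes the members lay between control and Ly6a-high cells.

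**Figure D2:**
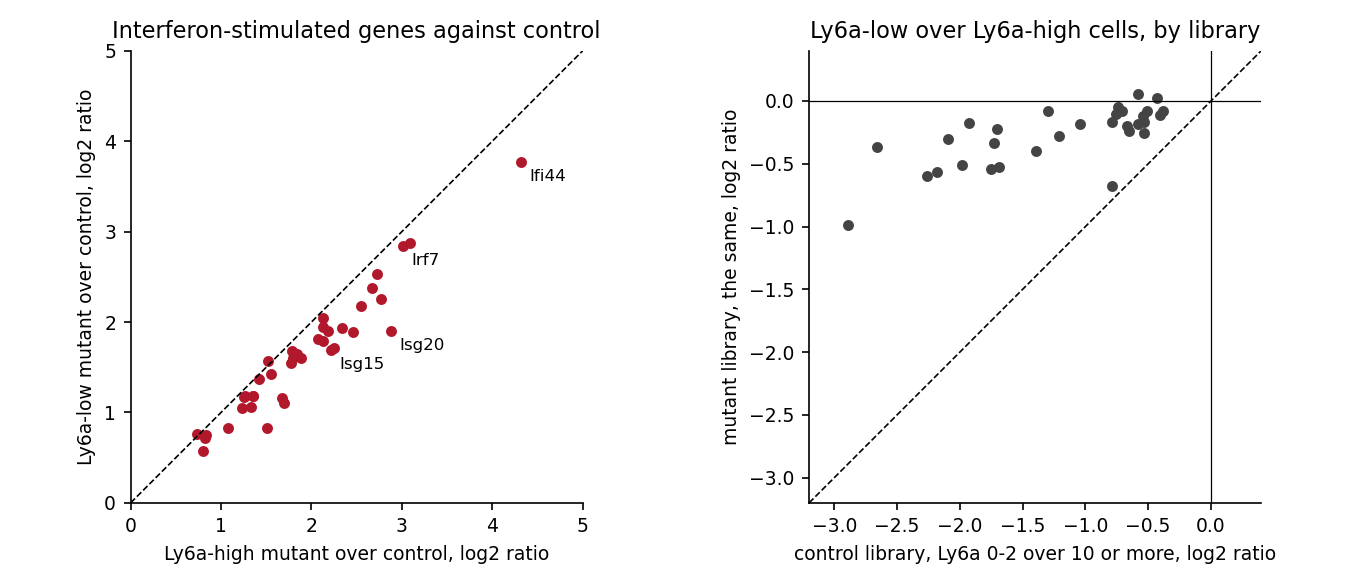
Left, log2 ratios of CPM over control for Ly6a-low (y axis) and Ly6a-high mutant cells (x axis), 1 point per interferon-stimulated gene, 39 genes, both axes sharing the same control cells. Right, log2 ratios of Ly6a-low over Ly6a-high cells in the control (x axis) and mutant library (y axis) for 31 genes. Dashed lines mark equal values, and on the left 37 of the 39 points lie below theirs, while on the right all 31 lie nearer to 0 on the mutant axis.

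The same held cell by cell. At 10000 UMIs the 40 genes together gave a median of 75 UMIs in a Ly6a-low cell (quartiles 59 and 96), 80 in an intermediate cell, 91 in a Ly6a-high cell and 25 in a control cell, and without thinning 172, 179.5, 225 and 61. Of the members, 62.4% (59.7% to 65.1%) were above 66 UMIs, the 95th percentile of the control cells, against 81.6% of Ly6a-high and 4.92% of control cells. At or below the control median were 5 members, or 0.401%. Their label, a lack of response, therefore fits Ly6a and not the interferon-stimulated genes at large.

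The promoters of 2 of these genes are shown for the ISRE. Both were lower in the Ly6a-low than in the Ly6a-high cells, Isg15 by less than 2-fold (log2 ratio -0.52) and Gbp2 beyond it (-1.14). The windows run from 250 bases before to 50 after a RefSeq start site, 5′ to 3′ on the gene's strand, on GRCm38.p6, and capitals mark the ISRE core, searched as a pair of GAAA runs with any 2 bases between them, on either strand. Isg15 (chr4:156200769-156201068, minus strand) has 3 overlapping matches and Gbp2 (chr3:142620413-142620712, plus strand) has 1, on the opposite strand.
Isg15: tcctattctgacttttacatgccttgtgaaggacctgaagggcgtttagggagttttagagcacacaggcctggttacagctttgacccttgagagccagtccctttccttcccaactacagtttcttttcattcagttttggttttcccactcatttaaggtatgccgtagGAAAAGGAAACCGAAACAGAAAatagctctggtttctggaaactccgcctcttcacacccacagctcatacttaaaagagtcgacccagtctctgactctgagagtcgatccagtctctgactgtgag
Gbp2: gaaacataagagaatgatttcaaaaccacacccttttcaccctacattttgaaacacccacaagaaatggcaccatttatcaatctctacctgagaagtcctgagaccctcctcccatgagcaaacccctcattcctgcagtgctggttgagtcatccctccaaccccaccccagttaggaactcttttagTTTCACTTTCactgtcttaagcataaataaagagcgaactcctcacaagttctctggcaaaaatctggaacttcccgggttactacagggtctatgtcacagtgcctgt
Of the 30 listed interferon-stimulated genes with such a window, 16 held the ISRE core (53.3%), where 3.99% of 27025 genes did. Among the 12 genes lowest in Ly6a-low against Ly6a-high cells, 8 had a window and 1, Gbp2, held the ISRE core. Among the 12 highest, 9 had a window and 1, Selenop, held it. Ly6a, Ly6i, Ccl5, Cd74, Fabp4, Fabp5 and Hmox1 had no window in the table.

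The type I interferon receptor genes were at like levels in the cell groups of the mutant library. The genes Ifnar1 and Ifnar2 were at 61.9 and 78.1 CPM in Ly6a-low cells and at 64.6 and 85.5 CPM in Ly6a-high cells. Irf8, a factor of monocyte and dendritic cell development, was at 51.7 CPM in Ly6a-low, 31.5 CPM in Ly6a-high and 31.9 CPM in control cells (log2 ratio 0.71 over Ly6a-high). Of 10 interferon ligand genes, 9 had no UMI in any group. Ifnb1, which encodes interferon beta, had 0 UMIs in the Ly6a-low cells, which allows up to 0.0974 CPM and 0.241% of cells by a limit of 3 counts over the group. In the Ly6a-high cells it had 92 UMIs in 27 cells, 1.11 CPM (0.899 to 1.37). The intermediate cells had 3 UMIs in 2 cells, and the control cells 2 UMIs in 1 cell.

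Other families that interferon raises were also above control in the Ly6a-low cells. Of the guanylate-binding, immunity-related GTPase and Ifi200 genes, 13 passed the floor between Ly6a-low and Ly6a-high cells. All 13 were lower in the Ly6a-low cells (median -0.30), with Gbp2 alone beyond 2-fold, where 0.152% of all 5276 genes were. Against control cells 7 of 8 were beyond 2-fold higher, where 6.14% of all 5215 genes were. Of the class I antigen presentation genes, 15 of 16 were lower than in Ly6a-high cells (median -0.24). H2-Q7 alone was beyond 2-fold, against the same 0.152%. Over control 10 of 15 were beyond 2-fold higher, against the same 6.14%. B2m, the light chain of class I molecules, was at 3549 CPM in Ly6a-low, 3548 CPM in Ly6a-high and 1165 CPM in control cells. Of the Ms4a genes 5 passed the floor, with a median of -0.07 against Ly6a-high cells. They ran from Ms4a4c (74.5 CPM in Ly6a-low and 136 CPM in Ly6a-high cells) to Ms4a7 (865 and 669 CPM). All 5 were beyond 2-fold above control, again against 6.14% of all genes. Ms4a4c, at 5.31 CPM in control cells, passed the floor there only through the Ly6a-low cells.

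In the control library the same limits on Ly6a gave another picture, from cells that played no part in choosing the members. There 5086 cells had at most 2 and 198 had 10 or more Ly6a UMIs, with median depths of 24558 and 27100 UMIs. Of 31 interferon-stimulated genes past the floor, 15 were beyond 2-fold lower in the Ly6a-low control cells, where 0.812% of 5047 genes were. None was beyond 2-fold higher, where 0.0793% were. The median of the 31 was -0.79 (-2.89 to -0.38). Isg20, Ifit2, Cmpk2, Phf11b, Oasl1, Usp18 and Ifit3, all among the 15, passed the floor only through the Ly6a-high control cells. Isg20, for example, was at 6.78 CPM in Ly6a-low and 50.4 CPM in Ly6a-high control cells. The low ratios of such genes follow in part from the floor. In the mutant library the same 31 genes had a median of -0.20, and all 31 were nearer to 0. Irf7 was at 65.4 CPM in Ly6a-low and 249 CPM in Ly6a-high control cells, a log2 ratio of -1.93, against -0.17 in the mutant library. For Isg15 the values were 137 and 444 CPM, and the ratios -1.69 and -0.52. Of the 40 genes, 37 were higher in the Ly6a-low mutant cells than in the control cells with 10 or more Ly6a UMIs, by a median log2 ratio of 0.66, the exceptions being Cmpk2, Isg20 and Rsad2. Arid1a was at 51.6 and 51.2 CPM in the Ly6a-low and Ly6a-high control cells.

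Between Ly6a-low and Ly6a-high mutant cells few genes were beyond 2-fold, and those that were lower made up the 8 counted above. Apart from Ly6a itself they were Ccl5, Cd74, H2-Q7, AW112010, Dmkn, Gbp2 and Ly6i. Ccl5, a chemokine that draws T cells and monocytes, was at 49.4 CPM in Ly6a-low, 63.3 CPM in intermediate, 255 CPM in Ly6a-high and 37.0 CPM in control cells (log2 ratio over Ly6a-high -2.37, -2.44 to -2.29). Its transcripts were uneven, with 59.6% of the UMIs of the Ly6a-low and 35.9% of those of the Ly6a-high cells in 10 cells of each group. Cd74, the invariant chain of class II molecules, was at 23.9, 16.6, 72.4 and 21.5 CPM in the same order (-1.60), again with 46.5% and 28.1% in 10 cells. Over control the log2 ratio of the Ly6a-low cells was 0.42 (0.34 to 0.50) for Ccl5 and 0.15 (0.03 to 0.26) for Cd74, both under 2-fold. Cells with 3 or more Ccl5 UMIs at 10000 UMIs were 2.97% of Ly6a-low, 8.59% of Ly6a-high and 1.70% of control cells.

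The others stood further above their control level, Dmkn by the least. Dmkn was at 17.0 CPM in Ly6a-low, 29.9 CPM in intermediate, 38.2 CPM in Ly6a-high and 10.1 CPM in control cells. Its log2 ratio over control was 0.75, under 2-fold. Of its UMIs in the Ly6a-low cells 34.5% lay in 10 cells, and it passed the floor only through the Ly6a-high cells. H2-Q7, a nonclassical class I molecule, was at 28.2 CPM in Ly6a-low, 35.6 CPM in intermediate, 69.9 CPM in Ly6a-high and 2.80 CPM in control cells. AW112010 was at 68.8, 62.3, 170 and 7.48 CPM, and Gbp2, a GTPase that attacks pathogen vacuoles, at 24.4, 24.7, 53.7 and 9.35 CPM. Ly6i, a neighbour of Ly6a in its family, was at 36.5, 52.1, 74.7 and 1.68 CPM, so that its summed level in cells with almost no Ly6a was above control, by a log2 ratio of 4.44 (4.25 to 4.64). At 10000 UMIs a Ly6i UMI was found in 19.9% of Ly6a-low, 33.1% of Ly6a-high and 1.60% of control cells (31.5%, 51.1% and 3.73% without thinning), and in 7.69% of the 39 neutrophil-like cells (1.62% to 20.9%), an interval that holds the members' share. H2-Q and Ly6 genes share similar sequence, so their counts are uncertain, as are those of Irf7, Gsta3, Mmp12, Selenop and Ccl6, which overlap genes on the opposite strand. The 11 lowest genes other than Ly6a were on the same side in the control library under the same limits, though the intervals of Cdkn3 (-0.26 to 0.07) and Dmkn (-0.54 to 0.18) included 0. Of these 9 differed by more than 2-fold there, where 0.812% of 5047 genes past the floor were beyond 2-fold lower. Among the 9 were H2-Q7 (2.46 and 8.81 CPM) and Ly6i (1.27 and 5.05 CPM), which were under the level floor in that library. AW112010, Gbp2, Isg20, Ms4a4c and Cd74, also among the 9, passed it only through the Ly6a-high control cells.

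The 9 genes beyond 2-fold higher in the Ly6a-low cells were Fabp4, Mrc1, Mgst1, Gsta3, S100a8, Selenop, Apoe, Mmp12 and Fabp5. Fabp4, Mrc1 and Mgst1 passed the level floor only through the Ly6a-low cells. Fabp4, a fatty acid carrier, was at 47.6 CPM in Ly6a-low, 22.9 CPM in intermediate, 10.5 CPM in Ly6a-high and 15.4 CPM in control cells (log2 ratio over Ly6a-high 2.18, 2.06 to 2.30). Fabp5, its relative, was at 1590, 1013, 776 and 778 CPM (1.04), and Apoe, the lipid transport protein, at 1529, 950, 740 and 102 CPM (1.05). In all 3 the intermediate cells lay between the Ly6a-low and the Ly6a-high cells. Mrc1, the mannose receptor, was at 38.3, 29.6, 14.8 and 23.3 CPM, and Mmp12, macrophage elastase, at 814, 563, 396 and 93.8 CPM. The glutathione transferases Mgst1 and Gsta3 were at 49.8 and 80.5 CPM against 19.7 and 36.4 CPM in Ly6a-high cells, and Selenop, a selenium carrier, at 52.7 against 24.8 CPM. Hmox1, which breaks down heme, was at 298 against 156 CPM, just under 2-fold. Apoe and Mmp12 were above control in both mutant groups, whereas Mrc1 was above control in the Ly6a-low and below it in the Ly6a-high cells. S100a8 was at 100 CPM against 46.8 CPM, but 61.2% and 63.7% of its UMIs lay in 10 cells of each group. The cell filter also used S100a8, with S100a9, so its level was capped in every kept cell. In the control library 10 of the 12 highest genes were on the same side, where the median log2 ratio over all genes was 0.01. Mmp12 (-0.14, -0.25 to -0.03) and Ccl6 (-0.29, -0.42 to -0.16) were on the other side. Among the 10 the intervals of Wfdc17 (-0.07 to 0.16), Gsta3 (-0.05 to 0.41) and Mgst1 (-0.01 to 0.42) included 0. S100a8 alone differed by more than 2-fold, at 20.3 and 7.50 CPM, which is under the level floor. Ly6a-low cells with 3 or more UMIs of Fabp4 and Mrc1 together at 10000 UMIs were 9.71% of the members, against 4.98% of intermediate, 1.90% of Ly6a-high and 3.36% of control cells and none of the 39 neutrophil-like cells (without thinning 19.3%, 13.1%, 7.54% and 12.7%). The difference from the Ly6a-high cells was 7.81 percentage points (6.13 to 9.65). Fabp4 and Mrc1 were the highest genes of this same comparison, so these shares describe it and are no separate support. Without the 121 Ly6a-low and 58 Ly6a-high cells with these UMIs, 7 of the 8 lower genes were still beyond 2-fold, all but Ly6i. Ly6a, which chose the cells, is among the 7. Of the 9 higher genes 3 were still past the floor and beyond 2-fold, Gsta3, Mgst1 and S100a8. Fabp4 kept a log2 ratio of 1.24, but its mean fell under the level floor. The cells left out were picked by Fabp4 and Mrc1, so a fall in both was built in.

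**Figure D3:**
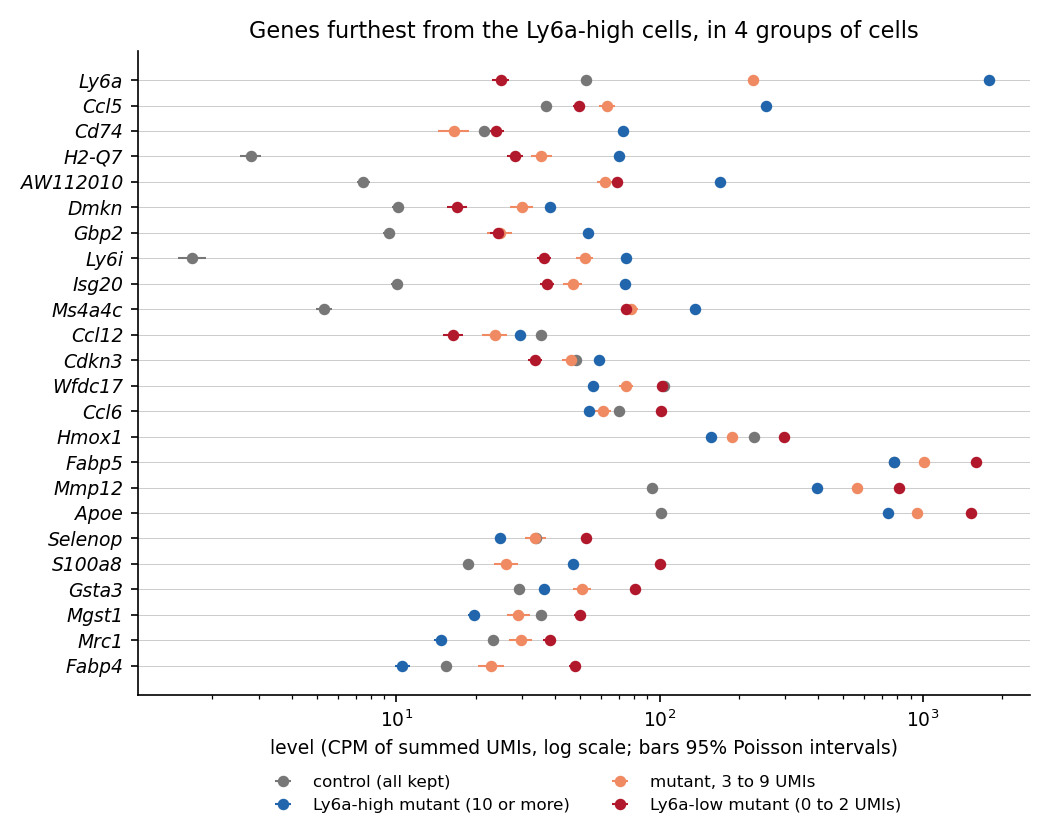
Levels (x axis, CPM on a log scale) of the 12 lowest and 12 highest genes in Ly6a-low against Ly6a-high cells (y axis), with points for the 4 groups of cells and bars for 95% Poisson intervals, which cover counting error only. Fabp4 runs from 10.5 CPM in Ly6a-high to 47.6 CPM in Ly6a-low cells, and Ccl5 from 255 to 49.4 CPM.

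Of 15 monocyte and macrophage genes past the floor, 13 were higher in the Ly6a-low than in the Ly6a-high cells (median log2 ratio 0.22). Mrc1 and Apoe were beyond 2-fold, where 0.171% of all 5276 genes were beyond 2-fold higher. The complement genes C1qa, C1qb and C1qc were at 138, 353 and 177 CPM in Ly6a-low, 112, 270 and 129 CPM in Ly6a-high and 209, 540 and 219 CPM in control cells. Cx3cr1, the fractalkine receptor, was the lowest of the list, at 170 against 214 CPM, and at 25.3 CPM in control cells. Of 11 inflammatory genes 9 were lower (median -0.21). Cxcl10, an interferon-induced chemokine, was at 240 CPM in Ly6a-low, 391 CPM in Ly6a-high and 135 CPM in control cells.

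The mutant cells were also split into 8 classes by their Ly6a count, to show the values on both sides of the limits. The median log2 ratio of the interferon-stimulated genes over control was 1.61 in mutant cells with 0, 1.55 with 1 and 1.72 with 2 Ly6a UMIs, 1.62 with 3 to 9, 1.67 with 10 to 19, 1.71 with 20 to 39, 1.82 with 40 to 79 and 2.17 with 80 or more. Ccl5 was at 35.3 CPM with 0 and at 641 CPM with 80 or more Ly6a UMIs. Apoe was at 1760 and 632 CPM, and Fabp4 at 55.3 and 5.46 CPM. Arid1a stayed between 15.5 and 21.7 CPM in all 8 classes. The cells with 80 or more Ly6a UMIs were also the deepest, with a median of 31478 UMIs against 21756 to 24120 in the other classes. Within depth classes of 10000 to 20000, 20000 to 30000 and 30000 or more UMIs, the interferon list had medians of -0.29, -0.27 and -0.21 for Ly6a-low over Ly6a-high cells and 1.60, 1.61 and 1.57 over control cells. Fabp4 was at 2.99, 2.22 and 2.16 and Ccl5 at -2.58, -2.73 and -1.91 over Ly6a-high cells.

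**Figure D4:**
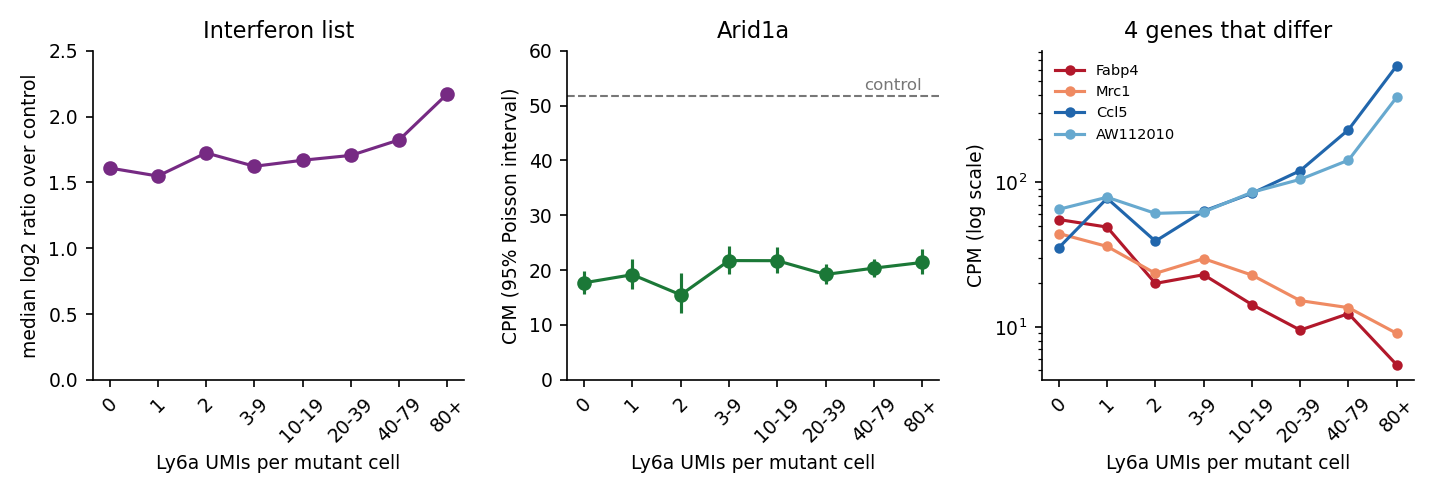
Mutant cells by number of Ly6a UMIs (x axis in each panel). Left, median log2 ratio of the interferon list over control, from 1.55 to 2.17. Centre, Arid1a in CPM with 95% Poisson intervals, between 15.5 and 21.7 CPM, with the control level of 51.8 CPM dashed. Right, CPM on a log scale of Fabp4 and Mrc1, which are lower, and Ccl5 and AW112010, which are higher, with 80 or more Ly6a UMIs than with 0.

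Genes of the OC program were below control in the Ly6a-low cells, as in the rest of the mutant library, though Atp6v0d2 was near its control level in the Ly6a-low cells alone. Of 6 OC genes past the floor all 6 were lower than in control cells (median -1.17), and 3 were beyond 2-fold, where 1.53% of all 5215 genes were beyond 2-fold lower. Mmp9 reached the floor only through its level in control cells. Mmp9, a matrix protease, was at 4.35 CPM in Ly6a-low, 4.82 CPM in Ly6a-high and 58.5 CPM in control cells, Ctsk, the collagen-degrading cathepsin of OCs, at 21.4, 20.2 and 57.4 CPM, and Jdp2, an AP-1 family factor, at 47.7, 62.8 and 154 CPM. Against Ly6a-high cells 4 passed the floor, with a median of -0.16 and none beyond 2-fold. Atp6v0d2, a proton pump subunit needed for cell fusion, was under the floor in that comparison, at 24.6 CPM in Ly6a-low, 14.9 CPM in intermediate, 5.37 CPM in Ly6a-high and 26.9 CPM in control cells. At 10000 UMIs, cells with 3 or more UMIs of Ctsk, Mmp9, Acp5 and Dcstamp were 8.03% of Ly6a-low, 8.69% of Ly6a-high and 15.7% of control cells, and 2.56% (1 of 39) of the neutrophil-like cells (21.0%, 26.3% and 28.8% of the first 3 without thinning). The Ly6a-low and Ly6a-high shares differed by -0.67 points (-2.46 to 1.25), an interval that includes 0, and the Ly6a-low and control shares by -7.64 points (-9.37 to -5.75).

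Genes of the cell cycle were slightly lower in the Ly6a-low cells. Of 12 such genes 10 were lower than in Ly6a-high cells (median -0.36) and none was beyond 2-fold. Birc5, a chromosomal passenger protein, was at 154 against 234 CPM and Ccnb1, the mitotic cyclin, at 53.3 against 75.2 CPM, while the replication clamp gene Pcna was at 367 against 334 CPM. Cells with 3 or more UMIs of Mki67, Top2a, Aurka and Cdk1 at 10000 UMIs were 44.9% of Ly6a-low (42.1% to 47.7%), 50.7% of Ly6a-high and 57.4% of control cells and 92.3% of the 39 neutrophil-like cells, which were dividing by these genes (59.0%, 66.7% and 73.4% of the first 3 without thinning). The first pair differed by -5.81 points (-9.12 to -2.48).

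Small numbers of cells carried genes of other states. Class II cells, with 3 or more UMIs of H2-Aa, H2-Ab1 and H2-Eb1, were 0.321% of Ly6a-low, 2.10% of Ly6a-high and 0.255% of control cells and none of the 39 neutrophil-like cells (0.722%, 3.12% and 0.798% without thinning), a difference of -1.78 points (-2.40 to -1.09) between the first pair. Cells with 3 or more UMIs of Elane, Mpo and Ly6c2, genes of early myeloid cells, were 13 of the members (1.04%) against 0.262% of Ly6a-high and 0.153% of control cells (1.12%, 0.394% and 0.187% without thinning). The gate took 92.3% of the 39 neutrophil-like cells, and the sum of 8 neutrophil markers was 149 CPM in the members against 86.8 CPM in Ly6a-high and 28.8 CPM in control cells. These 8 include S100a8 and S100a9, which the cell filter limited. Without the class II and early myeloid cells (17 Ly6a-low and 71 Ly6a-high) the same 8 lower and 9 higher genes were beyond 2-fold, and Cd74 went from -1.60 to -1.03. Ly6a is among the 8 and chose the cells, so it could not drop out. The stromal marker sum was 5.33 CPM in Ly6a-high and 93.2 CPM in intermediate cells, and its part in their values was not tested.

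**Figure D5:**
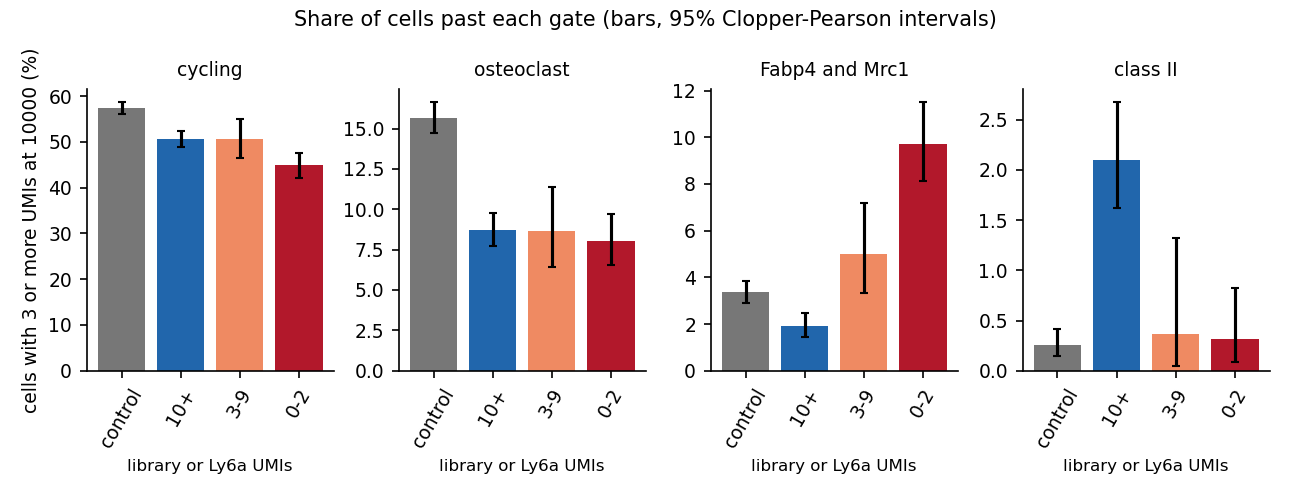
Share of cells (y axis, %) with 3 or more UMIs of each gene set at 10000 UMIs in control, Ly6a-high (10+), intermediate (3-9) and Ly6a-low (0-2) cells (x axis), with 95% Clopper-Pearson intervals and a separate y scale per panel. The Ly6a-low bar is below the Ly6a-high bar for cycling genes (44.9% and 50.7%) and class II genes (0.321% and 2.10%) and above it for Fabp4 and Mrc1 (9.71% and 1.90%). Fabp4 and Mrc1 were the highest genes of the comparison of Ly6a-low with Ly6a-high cells, so that panel is a description.

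The Ly6a-low cells had more Ly6a-low neighbours than the other mutant cells did, though most of their neighbours were not Ly6a-low. When each kept mutant cell was placed by its 30 nearest neighbours with Ly6a left out, the neighbours of a Ly6a-low cell were 33.5% Ly6a-low, 12.5% intermediate and 54.0% Ly6a-high, and those of a Ly6a-high cell 20.2% Ly6a-low, where 25.8% of all kept mutant cells were. Leaving out every listed gene as well gave 33.4% and 21.1%. More than 50% Ly6a-low neighbours were found for 16.5% of the Ly6a-low and 1.25% of the Ly6a-high cells.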

How the data were processed

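UMI counts per gene and cell were deposited by the authors as 1 raw count matrix per library. Per the file headers they came from Cell Ranger 6.1.0, and the submitters' processing notes name GRCm39. Any doublet filter and the use of strand in counting are not given in the sources used here. Control and mutant matrices held 6455 and 5865 cells and 164004706 and 131800059 UMIs. Of these, 5893 and 4837 cells passed the filters stated in the report. UMIs were summed over each group and divided by its total (CPM). Ratios have exact conditional Poisson intervals and shares Clopper-Pearson intervals at 95%, differences of shares by square-and-add, all for counting error only. With 1 library per genotype no p-value was computed. A gene was called beyond 2-fold when the mean of the 2 groups compared reached 20 CPM. Shares used cells thinned at random to 10000 UMIs, and doublets were removed only as an alternative. The genes named are the 12 lowest and 12 highest against Ly6a-high cells, the 6 lowest and 6 highest against control, and listed genes. The members, comparison groups and gene lists were chosen with earlier results of these data known. Scripts (Python 3.11.15, numpy 2.4.6, scipy 1.17.1, pandas 2.3.3, scikit-learn 1.9.0) were tested on simulated data. Gene positions are from GENCODE M39, and promoter windows from RefSeq on GRCm38.p6. Some items are not reported here.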

Additional observations from a re-analysis of the deposited data

How the results depend on the processing

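Of 94 values computed for 11 results under 13 alternative settings, 83 stayed near the reported value, 11 moved and 0 reversed. Near meant inside the reported interval, or for counts of genes within a set ratio. Reversed meant a change of sign where the reported interval excluded 0. The OC share difference from Ly6a-high cells did change sign at a depth floor of 20000 UMIs, from -0.67 to 0.47 points, inside its reported interval. Ly6a-low cells made up 27.0% of kept mutant cells with doublets removed and 13.9% when defined by 0 Ly6a UMIs. With a level floor of 5 CPM, 31 genes were beyond 2-fold lower and 25 higher than in Ly6a-high cells, and 175 lower and 540 higher than in control cells. With mitochondrial and ribosomal protein genes left out of the totals, 137 genes were beyond 2-fold lower than in control cells and the interferon median over control was 1.48. At a depth floor of 20000 UMIs the cycling share differed from that of Ly6a-high cells by -9.67 points, and on unthinned counts the OC share differed by -5.31 points (-8.06 to -2.47), an interval that no longer includes 0. Without the Fabp4 and Mrc1 cells, an alternative chosen after seeing the data as was leaving out the class II and early myeloid cells, 3 genes were beyond 2-fold higher than in Ly6a-high cells. The cause was not tested in these cases. No paired analysis was possible because there was 1 library per genotype. For the same reason genotype, mouse, culture and library cannot be told apart in any value over control. Genes under 20 CPM were outside the counts of genes beyond 2-fold.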

Other observations

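Genes under the level floor gave further values for the Ly6a-low cells, chosen after their values were seen. Cd34, a progenitor surface marker, was at 4.54 CPM in Ly6a-low, 15.2 CPM in Ly6a-high and 0.390 CPM in control cells. The GTPase Iigp1 was at 6.0, 12.9 and 0.631 CPM, and the class I gene H2-Q6 at 4.90, 17.8 and 0.409 CPM. Nos2, the inducible nitric oxide synthase, was at 4.58, 9.49 and 0.823 CPM. Cxcl9, a chemokine that interferon gamma induces, was at 0.260, 3.14 and 1.78 CPM. Ccr2, the monocyte chemokine receptor, was at 3.08, 7.79 and 1.71 CPM. In each of these 6 genes the Ly6a-low cells were lower than the Ly6a-high cells, and in all but Cxcl9 they were higher than the control cells. The 6 were picked with their values known, so this shared direction is a description. Other genes under the floor, such as Atp6v0d2 and Ly6c2, were higher in the Ly6a-low than in the Ly6a-high cells.

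Plac8, a small cysteine-rich protein of myeloid cells, was at 26.1 CPM in Ly6a-low, 10.6 CPM in intermediate, 25.4 CPM in Ly6a-high and 0.861 CPM in control cells. Ly6c2, a marker of classical monocytes, was at 18.7 CPM in Ly6a-low and 2.19 CPM in Ly6a-high cells, with 94.1% of its 575 UMIs in the Ly6a-low cells held by 10 cells. Ribosomal protein genes took 15.5% of UMIs in Ly6a-low, 16.8% in Ly6a-high and 21.6% in control cells.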
